A study of Homo sapiens with 15 samples.

Results

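The genes described here are 10 signalling genes of cell adhesion: the SRC-family kinases SRC, FYN, YES1 and LYN, the kinase CSK, the focal adhesion kinases PTK2 and PTK2B, the scaffold BCAR1, and the ABL-family kinases ABL1 and ABL2. They were chosen by symbol from a table of 18322 genes. All 10 were found in the table, and all 10 were among the 17012 genes that were tested. The 15 RNA sequencing libraries come from A375, a line of human melanoma cells with an activating BRAF mutation, and fall into 5 groups of 3 that the series calls biological triplicates. The groups were PLX4720-resistant cells labelled with the hairpin shMYC2, resistant cells labelled with the hairpin shMYC1, parental cells with MYC T58A (a MYC variant with an altered phosphorylation site), the clonal PLX4720-resistant population without a hairpin (Resistant), and the line it came from (Parental). PLX4720 is an inhibitor of mutant BRAF. All cells were grown in normal culture to about 80% confluency, and whether PLX4720 was present at harvest is not given. Resistance rests on 1 clonal population, the promoter that drives MYC T58A is not given, and no library with a control hairpin or an empty vector is among the 15. Values are normalized reads: the reads of a gene over the size factor of its library.

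SRC-family kinases sit on the inner face of the cell membrane and are switched on where integrins and growth factor receptors cluster. CSK phosphorylates a tyrosine in their tail and so holds them inactive. At focal adhesions PTK2 (focal adhesion kinase, FAK) recruits SRC, and both phosphorylate the scaffold BCAR1 (p130CAS), which passes the signal on to small GTPases through CRK. The ABL kinases act on CRK and on regulators of actin. In melanoma this module has been studied for its part in invasion and in growth under inhibitors of the RAF pathway.

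The library depth was 24222192 to 30399644 reads in genes. MYC went against both hairpin labels: its mean was 7817 normalized reads in the libraries labelled shMYC2 and 486 in those labelled shMYC1, against 302 in Resistant, so these groups are named by their labels only. MYC averaged 3511 in MYC T58A and 423 in Parental, and was called lower in Resistant than in Parental (limma adjusted p = 4.32e-06). The libraries labelled shMYC2 also stood apart as a whole: 1636 to 1694 genes had no read there, against 296 to 665 in the other 12 libraries, and their correlation with other groups on the log2 scale was 0.828 to 0.848, while libraries of 1 group correlated at 0.99 to 0.994. The remaining groups correlated with each other at 0.928 to 0.975. Libraries labelled shMYC1 lay closer to Parental (0.973 to 0.975) than to Resistant (0.943 to 0.948). The labels call the cells melanocytes. Of 15 melanocyte markers 11 were in the table, and SOX10, a defining factor of the lineage, averaged 19.5 normalized reads in the libraries labelled shMYC2, 11890.0 in those labelled shMYC1, 9.14 in MYC T58A, 7.5 in Resistant and 5282 in Parental. The 11 markers summed to 900.1 to 965 normalized reads per library with the shMYC2 label, 13780 to 16200 with the shMYC1 label, 4118 to 4561 in MYC T58A, 4036 to 4379 in Resistant and 7465 to 7734 in Parental. Single markers did not all follow this sum: MITF, another factor of the lineage, averaged 173, 1620.0, 3592, 3748 and 1509 normalized reads in the same order of groups, so its means in Resistant and MYC T58A were 2.48 and 2.38 times that in Parental, both called. The pigment enzymes DCT (mean 78.6 in MYC T58A and 1.04 in Parental) and TYRP1 (60.3 and 3.81) were also higher in MYC T58A. Of the 11 markers, 4 (36.4%) were called higher and 7 (63.6%) lower in MYC T58A than in Parental, beside 30.1% and 33.7% of all tested genes. PMEL (2.97 and 22.4) and GPR143 (4.32 and 9.66) were among the lower ones. In Resistant against Parental 2 of the 11 (18.2%) were called higher and 5 (45.5%) lower, beside 27.2% and 24.4% of all tested genes. All 9 fibroblast markers were in the table and summed to 2444 to 2543 with the shMYC2 label, 432 to 446 with the shMYC1 label, 564 to 635 in MYC T58A, 3971 to 4189 in Resistant and 539 to 611 in Parental. A different marker made most of the high sums: THY1 averaged 1949.5 with the shMYC2 label and 2.44 in Resistant, while LUM averaged 3.86 with the shMYC2 label and 3051 in Resistant. In Resistant against Parental 5 of the 9 (55.6%) rose and 1 (11.1%) fell, beside 27.2% and 24.4% of all tested genes. With the shMYC2 label against Resistant 2 (22.2%) rose and 5 (55.6%) fell, beside 36.2% and 43% of all tested genes. Epithelial markers (5 of 8 in the table) summed to 923 to 2123 and endothelial markers (4 of 6) to 10.6 to 164 over all libraries. KRT10 was the largest epithelial marker (mean 937 in Resistant and 856 in Parental, not called), and others differed by group. KRT14 averaged 441 with the shMYC1 label, 98.0 in Parental and 2.53 in Resistant, and ELF3 126 in Resistant and 2.42 in Parental. The endothelial marker KDR averaged 118 with the shMYC1 label and 4.90 in Resistant. Whether these markers have a part in the differences of the members was not tested.

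Most members differed between groups, as did most genes. In Resistant against Parental, 6 of the 10 members were called at an adjusted p under 0.05 (limma, Benjamini-Hochberg over all tested genes), beside 51.6% of all tested genes: ABL2, FYN, LYN and YES1 rose (4 members, 27.2% of genes), and PTK2 and SRC fell (2 members, 24.4%). In MYC T58A against Parental, 8 members were called, beside 63.8% of genes: YES1, CSK, LYN and PTK2 rose (4 members, 30.1% of genes), and SRC, PTK2B, ABL2 and ABL1 fell (4 members, 33.7%). With the shMYC1 label against Resistant, 7 were called, beside 57.1% of genes: SRC and CSK rose (2 members, 27% of genes), and LYN, FYN, YES1, ABL1 and ABL2 fell (5 members, 30.1%). With the shMYC2 label against Resistant, 9 were called, beside 79.2% of genes: YES1, ABL1, PTK2, BCAR1 and CSK rose (5 members, 36.2% of genes), and LYN, PTK2B, FYN and SRC fell (4 members, 43%). The shares of members called are not far from those of all genes, so the counts say little of the members, and the values of each gene follow. Both comparisons against Parental share the Parental libraries, and both hairpin comparisons share the Resistant ones. The same Resistant libraries also stand in Resistant against Parental. A rise there and a fall with a hairpin label, as for FYN and LYN, are therefore not independent results. Against Parental, 5 members were called with the shMYC1 label (39.6% of genes) and 9 with the shMYC2 label (79.5%), and 9 were called between the labels (78.6%). The median log2 difference of the 10 members was 0.14, 0.080, -0.15 and 0.12 in the 4 comparisons in that order, beside 0.00898, -0.0195, -0.0266 and -0.0755 over all tested genes. Without the 3 libraries labelled shMYC2, an alternative added after seeing the data, the first 3 comparisons still called 6, 8 and 7 members.

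**Figure D1:**
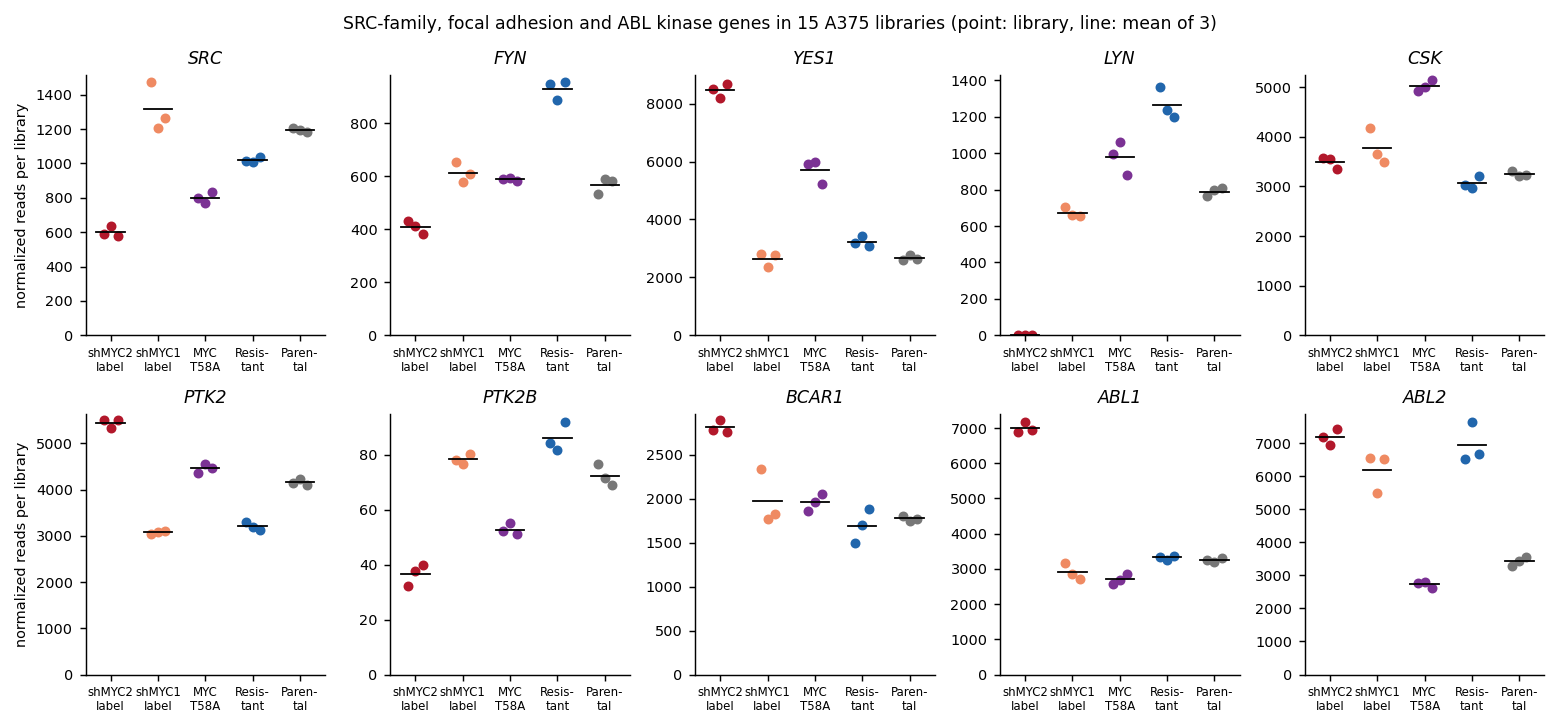
Normalized reads (vertical axis, from 0) of the 10 members in each library (points) with the mean of 3 (line), for libraries labelled shMYC2, libraries labelled shMYC1, MYC T58A, Resistant and Parental. YES1 sits at 8182 to 8689 in the shMYC2-labelled libraries, while LYN sits near 2 there and between 653 and 1364 in the other groups.

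Promoter sequences are shown for the 3 members whose start in the RefSeq promoter table lies within 1000 bases of the gene's outermost start in GENCODE v29, since MYC binds DNA and the groups differ in MYC. They are the 250 bases before the start, on build GRCh38.p14, all on the minus strand and written 5′ to 3′ along the gene: YES1 at chr18:812243-812492, FYN at chr6:111873453-111873702 and BCAR1 at chr16:75268008-75268257. Capitals mark the only match to either of the motifs searched on both strands.
YES1: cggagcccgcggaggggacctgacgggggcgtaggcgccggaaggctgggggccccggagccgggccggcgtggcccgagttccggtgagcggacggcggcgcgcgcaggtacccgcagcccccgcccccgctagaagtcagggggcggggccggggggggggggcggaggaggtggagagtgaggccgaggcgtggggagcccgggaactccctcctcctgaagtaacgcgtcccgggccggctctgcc
FYN: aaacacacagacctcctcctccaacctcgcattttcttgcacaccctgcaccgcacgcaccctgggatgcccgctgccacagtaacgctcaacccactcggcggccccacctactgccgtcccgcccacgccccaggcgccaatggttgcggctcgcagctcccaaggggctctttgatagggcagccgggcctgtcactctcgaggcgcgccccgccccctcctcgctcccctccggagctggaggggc
BCAR1: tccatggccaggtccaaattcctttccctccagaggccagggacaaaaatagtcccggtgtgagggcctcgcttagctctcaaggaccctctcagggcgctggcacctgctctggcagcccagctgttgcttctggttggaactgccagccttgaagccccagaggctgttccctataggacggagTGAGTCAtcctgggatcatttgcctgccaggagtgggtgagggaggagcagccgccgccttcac
The motifs were CACGTG, the E-box bound by MYC with MAX, and TGACTCA, bound by AP-1; they do not overlap each other. CACGTG is present in 6.34% and TGACTCA in 4.2% of the 35116 human promoter windows of this length in the table. Of 13 starts of 6 members, 0 held CACGTG and 2 held TGACTCA. In BCAR1 it is read as TGAGTCA, its reverse complement, and lies 64 bases before the start, and the other match was at a start inside ABL2. The 3 windows are rich in G and C, with 79.2% for YES1, 68.8% for FYN and 60.4% for BCAR1. A match is a description of the letters only, and a window without one says nothing of MYC or AP-1 at these genes.

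YES1, a broadly expressed SRC-family kinase, was the SRC-family member that rose with both the MYC T58A construct and the shMYC2 label. It had 8513, 8182 and 8689 normalized reads in the libraries labelled shMYC2 and 2799, 2349 and 2776 in those labelled shMYC1. MYC T58A cells had 5924, 5984 and 5236, Resistant cells 3182, 3413 and 3091, and Parental cells 2594, 2769 and 2631. The shMYC2-labelled libraries were the highest and MYC T58A came next, with no overlap with any other group, while the shMYC1-labelled and Parental libraries overlapped. MYC T58A stood 2.14-fold above Parental for YES1 (log2 1.10, SE 0.066, limma adjusted p = 1.2e-10). The shMYC2-labelled mean was 2.62-fold above that of Resistant (log2 1.39, adjusted p = 9.49e-13), and with the shMYC1 label 1.22-fold lower (log2 -0.29, adjusted p = 0.00101). Resistant stood 1.21-fold above Parental (log2 0.28, adjusted p = 0.00191). The 30 nearest placed genes on chromosome 18 had a median of 0.46 in MYC T58A against Parental and -0.074 with the shMYC2 label against Resistant. Over all 218 placed genes of that chromosome the medians were 0.53 and 0.25. Whether the shift of the chromosome has a part in the YES1 values was not tested. The bases shown above for YES1 hold neither motif.

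LYN, a SRC-family kinase best known from blood cells and also made in many tumours, showed the widest range of the 10. Each library labelled shMYC2 held 2 LYN reads, which is 2.15, 2.09 and 2.05 normalized reads. LYN had 707, 662 and 653 in the libraries labelled shMYC1 and 996, 1061 and 881 in MYC T58A. Resistant libraries had 1364, 1237 and 1199.9, and Parental libraries 764, 796 and 807. No 2 groups overlapped, and Resistant was the highest. In the shMYC2-labelled libraries 6 reads in all stood against 3912 in Resistant, which is 603-fold lower with an exact 95% counting interval of 277 to 1643 that covers counting error only. Against Parental the same libraries were 377-fold lower (173 to 1028). The 50 nearest tested genes on chromosome 8 had a median log2 difference of 0.22 with the shMYC2 label, where LYN had -8.68. LYN was also 1.88-fold lower with the shMYC1 label than in Resistant (log2 -0.91, SE 0.080, adjusted p = 2.24e-08). Resistant stood 1.61-fold above Parental (log2 0.68, adjusted p = 1.18e-06) and MYC T58A 1.24-fold above Parental (log2 0.31, adjusted p = 0.00275). In these bulk libraries fewer cells with a transcript and less of it per cell cannot be told apart.

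FYN, a SRC-family kinase with roles in adhesion and in nerve and T cells, was highest in Resistant. It had 432, 412 and 381 normalized reads in the libraries labelled shMYC2, 654, 577 and 609.9 in those labelled shMYC1, and 591, 594 and 583 in MYC T58A. Resistant libraries had 947, 887 and 955, and Parental libraries 533, 588 and 582. Resistant lay above every other group and the shMYC2 label below, while the shMYC1-labelled, MYC T58A and Parental libraries overlapped. The Resistant mean of FYN was 1.64-fold above that of Parental (log2 0.71, SE 0.065, adjusted p = 5.38e-08), where its 50 neighbours on chromosome 6 had a median of 0.12. It was 1.51-fold lower with the shMYC1 label (log2 -0.60, adjusted p = 3.64e-07) and 2.28-fold lower with the shMYC2 label (log2 -1.19, adjusted p = 7.7e-12) than in Resistant. In MYC T58A against Parental the log2 difference was 0.055 (adjusted p = 0.479). Of 20 markers of blood cells, which use LYN and FYN, 7 were in the table: LCP1, CSF1R and CD68 rose in Resistant against Parental, LAPTM5 fell (mean 39.0 in Resistant and 77.9 in Parental), and CORO1A, ITGAX and FCER1G were not called. Their sum was 3461 to 3975 normalized reads in Resistant and 435 to 481 in Parental, and LCP1 alone made 2844 to 3394 of the Resistant sum. All 7 were called lower with the shMYC2 label than in Resistant (median log2 -3.66), beside 43% of all tested genes. With the shMYC1 label 5 were lower (30.1% of genes) and 1 higher (27%) than in Resistant. In MYC T58A 4 were lower (33.7%) and 0 higher (30.1%) than in Parental. None of the 7 was without a read in any group, but FCER1G averaged 1.39 and ITGAX 2.45 normalized reads with the shMYC2 label. The part of the 7 in the LYN and FYN differences was not tested.

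SRC itself, the kinase that gives the family its name, fell in Resistant, in MYC T58A and with the shMYC2 label, and rose with the shMYC1 label. It had 588, 636 and 575 normalized reads in the libraries labelled shMYC2, 1473, 1207 and 1264 in those labelled shMYC1, and 801, 771 and 831 in MYC T58A. Resistant libraries had 1012, 1006 and 1038, and Parental libraries 1205, 1196 and 1185. The shMYC2-labelled libraries were the lowest, and the shMYC1-labelled libraries lay just above Parental without a called difference (adjusted p = 0.123). SRC was 1.49-fold lower in MYC T58A than in Parental (log2 -0.58, SE 0.065, adjusted p = 4.31e-07), where its 50 neighbours on chromosome 20 had a median of -0.30. The difference of -0.23 between Resistant and Parental (adjusted p = 0.00619) stood beside a neighbour median of -0.30. Under the shMYC1 label the difference from Resistant was 0.36 (adjusted p = 0.000115), and the neighbours had 0.27. Under the shMYC2 label SRC was 1.70-fold lower than in Resistant (log2 -0.76, adjusted p = 4.08e-09), while the neighbours had a median of 0.22. Whether the shift of the neighbours has a part in the SRC values was not tested.

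**Figure D2:**
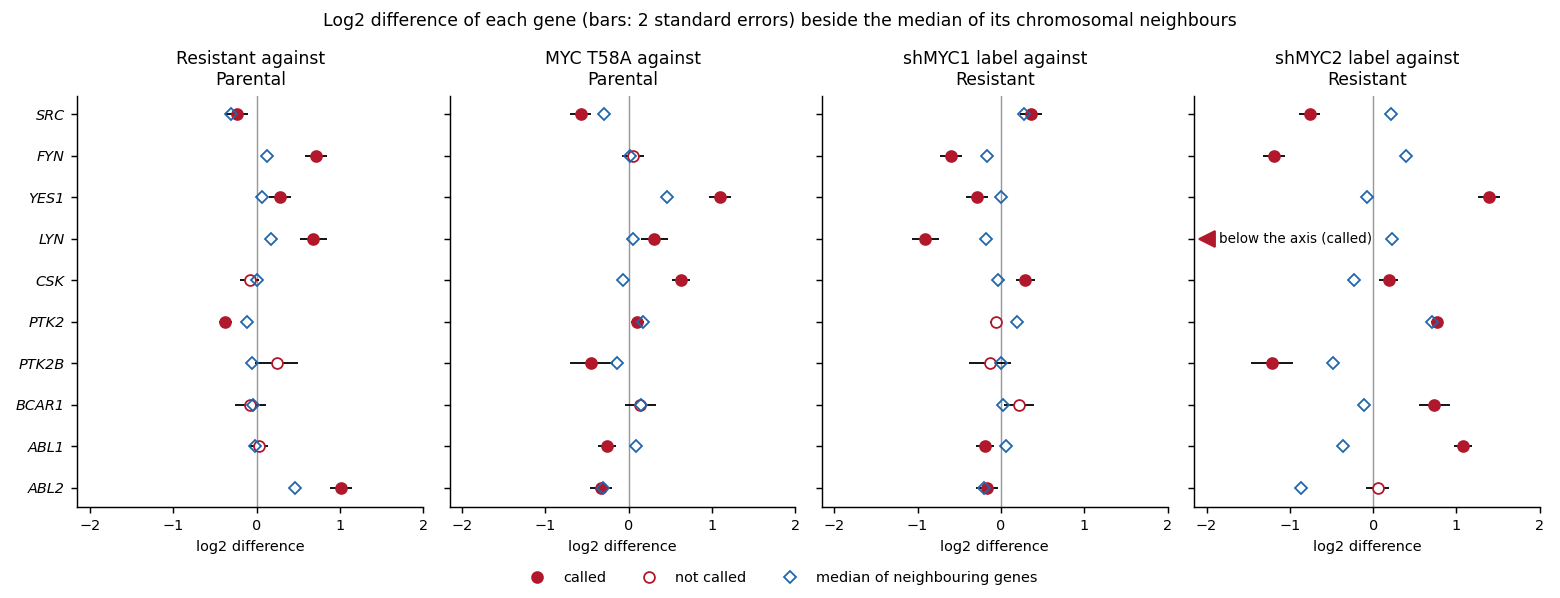
Log2 difference of each member (circles, filled where called at an adjusted p under 0.05; bars are 2 standard errors) and the median of its nearest placed genes on the same chromosome (diamonds) in the 4 comparisons. SRC lies near its neighbours in Resistant against Parental (-0.23 and -0.30), while YES1, ABL1 and BCAR1 lie well above theirs with the shMYC2 label. LYN with the shMYC2 label, at -8.68, is below the axis and drawn as an arrow.

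Set per kilobase of exon, YES1 was the most abundant of the 4 SRC-family members in each library. The length used is the union of all annotated exons of a gene, not that of the transcripts made in these cells. Whether the order of the genes holds with other lengths was not tested, and the SDs below do not cover it. Their summed level averaged 1807 ± 44.0 normalized reads per kb in the libraries labelled shMYC2, 913 ± 74.6 in those labelled shMYC1, 1482 ± 92.3 in MYC T58A, 1121 ± 28.4 in Resistant and 911 ± 23.0 in Parental (SD, n = 3 each). YES1 made 91.8% ± 0.576 of that sum with the shMYC2 label, 56.7% ± 1.75 with the shMYC1 label, 75.6% ± 0.836 in MYC T58A, 56.5% ± 1.75 in Resistant and 57.3% ± 0.63 in Parental. The sum was largest where YES1 held the largest share. The LYN share averaged 0.0188% with the shMYC2 label, 11.97% with the shMYC1 label, 10.7% in MYC T58A, 18.3% in Resistant and 13.995% in Parental. The SRC share averaged 5.14%, 22.2%, 8.39%, 14.1% and 20.3% in these groups in the same order. SRC thus came second in all groups but MYC T58A and Resistant, where LYN did. FYN stood last of the 4, except in the libraries labelled shMYC2, where LYN did.

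**Figure D3:**
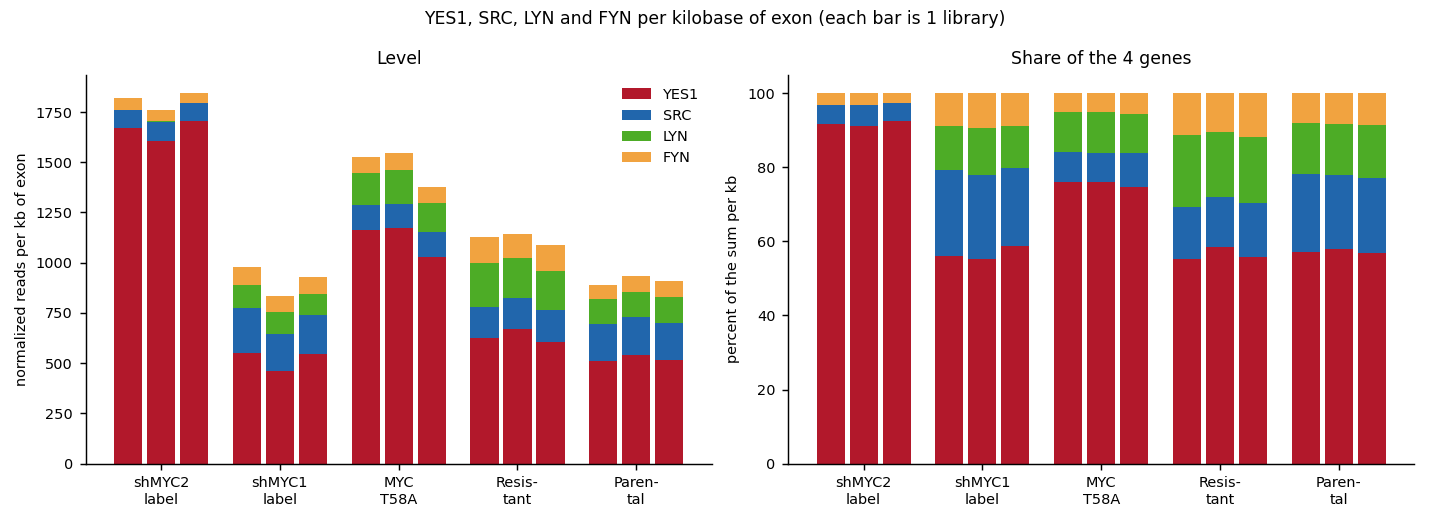
Normalized reads per kb of exon (left) and percent of their sum (right) of YES1, SRC, LYN and FYN in each of the 15 libraries (1 bar each), by group. YES1 holds 91.2% to 92.4% in the libraries labelled shMYC2, against 55.3% to 58.5% in Resistant.

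CSK, the kinase that holds the SRC family inactive, rose mainly in MYC T58A. It had 3570.1, 3556 and 3356 normalized reads in the libraries labelled shMYC2, 4174, 3653 and 3484 in those labelled shMYC1, and 4921, 5013 and 5149 in MYC T58A. Resistant libraries had 3034, 2969 and 3218, and Parental libraries 3323, 3203 and 3237. MYC T58A lay above every other group, and Resistant and Parental overlapped. MYC T58A cells held 1.55-fold more CSK than Parental cells (log2 0.63, SE 0.057, adjusted p = 2.53e-08), with a neighbour median of -0.074 on chromosome 15. The shMYC1 label went with 1.23-fold more CSK than in Resistant (log2 0.29, adjusted p = 0.000256). The rise with the shMYC2 label (log2 0.19, adjusted p = 0.00637) was not called when libraries were scaled to their total count (log2 0.040, adjusted p = 0.525) or by quantiles (log2 0.063, adjusted p = 0.332). Between Resistant and Parental the log2 difference of CSK was -0.083 (adjusted p = 0.239).

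PTK2, the focal adhesion kinase, fell in Resistant and rose with the shMYC2 label. It had 5499, 5338 and 5516 normalized reads in the libraries labelled shMYC2, 3032, 3090.0 and 3098 in those labelled shMYC1, and 4367, 4565 and 4476 in MYC T58A. Resistant libraries had 3292, 3193 and 3129.9, and Parental libraries 4139, 4222 and 4108. The shMYC1-labelled and Resistant libraries were the lowest, and the shMYC2-labelled ones lay above all others. The Resistant mean of PTK2 was 1.30-fold below that of Parental (log2 -0.37, SE 0.038, adjusted p = 1.99e-07), where its 50 neighbours on chromosome 8 had a median of -0.12. The shMYC2-labelled mean was 1.70-fold above Resistant (log2 0.77, adjusted p = 1.85e-12), beside a neighbour median of 0.70. Under the shMYC1 label the log2 difference from Resistant was -0.060 (adjusted p = 0.191), and against Parental PTK2 was 1.35-fold lower (log2 -0.44, adjusted p = 8.07e-08). The small rise in MYC T58A (log2 0.10, adjusted p = 0.0237) was not called with quantile scaling or without 1 of 3 libraries: library 2 of MYC T58A (adjusted p = 0.0878), library 1 of Parental (0.0626) or library 3 of Parental (0.0767).

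PTK2B (PYK2), the calcium-responsive relative of PTK2, was low throughout. It had 32.3, 37.5 and 39.9 normalized reads in the libraries labelled shMYC2, 78.0, 76.7 and 80.3 in those labelled shMYC1, and 52.1, 55.1 and 51.1 in MYC T58A. Resistant libraries had 84.3, 81.8 and 91.9, and Parental libraries 76.8, 71.7 and 68.9. The shMYC2-labelled libraries were the lowest and MYC T58A came next, below the other 3 groups. PTK2B was 1.37-fold lower in MYC T58A than in Parental (log2 -0.45, SE 0.13, adjusted p = 0.00542) and 2.35-fold lower with the shMYC2 label than in Resistant (log2 -1.21, adjusted p = 8.55e-08). Both calls were lost with quantile scaling, where the log2 differences were -0.20 (adjusted p = 0.161) and -0.22 (adjusted p = 0.118). In the main fit the 50 neighbours of PTK2B on chromosome 8 had medians of -0.14 and -0.48 in these comparisons. Whether the shift of the neighbours has a part in the PTK2B values was not tested. Per kb of exon PTK2 exceeded PTK2B in each group, with means of 397 ± 7.15 and 4.61 ± 0.49 normalized reads per kb in the libraries labelled shMYC2 and 302 ± 4.28 and 9.13 ± 0.509 in Parental (SD, n = 3 each).

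BCAR1, the scaffold that PTK2 and SRC phosphorylate, rose with the shMYC2 label. It had 2784, 2896 and 2755 normalized reads in the libraries labelled shMYC2, 2335, 1771 and 1826 in those labelled shMYC1, and 1863, 1959 and 2055 in MYC T58A. Resistant libraries had 1492, 1705 and 1889, and Parental libraries 1809, 1751 and 1769. The shMYC2-labelled libraries lay above all others, and the shMYC1-labelled and Resistant libraries overlapped. BCAR1 was 1.66-fold higher with the shMYC2 label than in Resistant (log2 0.74, SE 0.091, adjusted p = 1.35e-06), where its neighbours on chromosome 16 had a median of -0.10. Under the shMYC1 label the log2 difference of 0.22 missed the threshold (adjusted p = 0.0531), and was called by edgeR (adjusted p = 0.0316) and by DESeq2 (adjusted p = 0.0341). In MYC T58A against Parental it was 0.14 (adjusted p = 0.193), called, among the alternatives run, only where these 2 groups were fitted alone (adjusted p = 0.00814). The log2 difference between Resistant and Parental was -0.074 (adjusted p = 0.53).

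ABL1 and ABL2, a pair of related kinases that act on actin and on CRK, followed different patterns. ABL1 had 6895, 7174 and 6942 normalized reads in the libraries labelled shMYC2, 3174, 2865 and 2711 in those labelled shMYC1, and 2575, 2695 and 2852 in MYC T58A. For ABL1, Resistant libraries had 3341, 3255 and 3379, and Parental libraries 3247, 3188 and 3313. The shMYC2-labelled libraries stood far above a narrow band that holds the other 4 groups. ABL2 had 7192, 6943 and 7438 in the libraries labelled shMYC2, 6547, 5481 and 6514 in those labelled shMYC1, and 2777, 2785 and 2622 in MYC T58A. For ABL2, Resistant libraries had 6523, 7631 and 6671, and Parental libraries 3293, 3447 and 3557. ABL2 was high in all 9 libraries labelled as resistant cells, with or without a hairpin label, and low in the 6 labelled as parental cells. These sets, made by label only, did not overlap.

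The Resistant mean of ABL2 was 2.02-fold above that of Parental (log2 1.01, SE 0.068, adjusted p = 7.85e-10), the largest difference of a member there, and its 50 neighbours on chromosome 1 had a median of 0.46. It was 1.26-fold lower in MYC T58A than in Parental (log2 -0.33, adjusted p = 0.000342), where the neighbours had -0.31. With the shMYC1 label ABL2 stayed 1.80-fold above Parental with the shMYC1 label (log2 0.84, adjusted p = 2.55e-08), and with the shMYC2 label 2.09-fold above Parental (log2 1.07, adjusted p = 6.29e-11). Against Resistant its log2 difference was 0.054 with the shMYC2 label (SE 0.068, adjusted p = 0.473), where the neighbours had a median of -0.87. The fall with the shMYC1 label against Resistant (log2 -0.17, adjusted p = 0.0411) rested on single libraries: without library 2 of that label the adjusted p was 0.222 (log2 -0.085), and without library 2 of Resistant 0.241 (log2 -0.099). It was not called by edgeR either (adjusted p = 0.0535).

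ABL1 was 2.11-fold higher with the shMYC2 label than in Resistant (log2 1.07, SE 0.053, adjusted p = 1.69e-12), while its neighbours on chromosome 9 had a median of -0.37. It was 1.14-fold lower with the shMYC1 label than in Resistant (log2 -0.19, adjusted p = 0.00501) and 1.20-fold lower in MYC T58A than in Parental (log2 -0.26, adjusted p = 0.000305). Between Resistant and Parental the log2 difference of ABL1 was 0.033 (SE 0.053, adjusted p = 0.631). Per kb of exon, ABL1 averaged 1116 ± 23.8 normalized reads in the libraries labelled shMYC2 and 518 ± 9.94 in Parental, and ABL2 averaged 542 ± 18.7 and 259 ± 9.99 in the same groups (SD, n = 3 each).

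**Figure D4:**
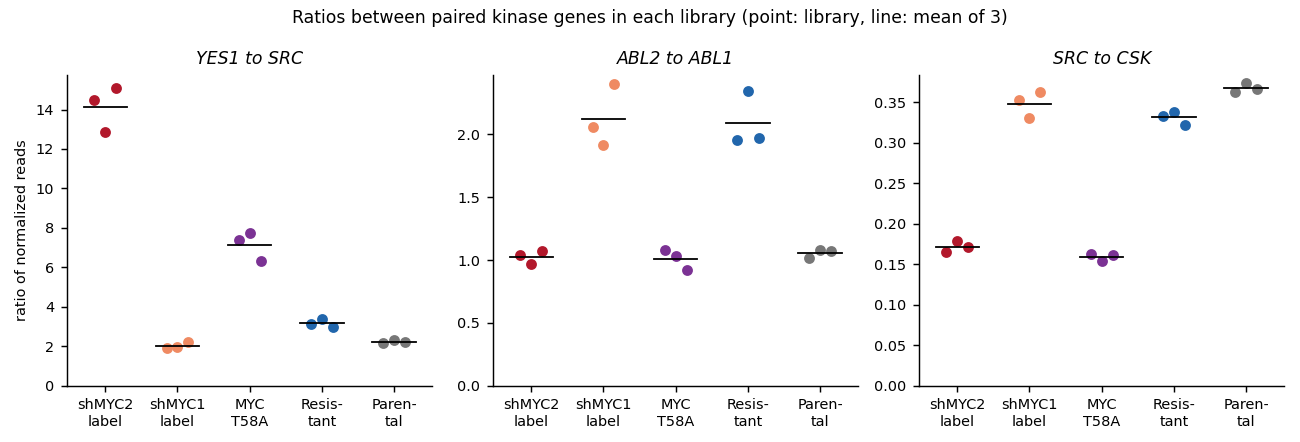
Ratios of normalized reads between members in each library (points) with the mean of 3 (line), by group, for YES1 to SRC, ABL2 to ABL1 and SRC to CSK. ABL2 to ABL1 lies between 1.91 and 2.4 in Resistant and the libraries labelled shMYC1, and between 0.919 and 1.08 in the other 9 libraries.

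Ratios between members within a library do not depend on its size factor, though quantile scaling can change them. Only their differences between groups are read here, since they are not set per length. The ratio of YES1 to SRC averaged 14.2 ± 1.16 with the shMYC2 label, 2.01 ± 0.159 with the shMYC1 label, 7.15 ± 0.761 in MYC T58A, 3.17 ± 0.209 in Resistant and 2.23 ± 0.0821 in Parental (SD, n = 3 each). The shMYC2-labelled and MYC T58A libraries lay above all others in this ratio. SRC to CSK averaged 0.172 with the shMYC2 label, 0.349 with the shMYC1 label, 0.159 in MYC T58A, 0.332 in Resistant and 0.368 in Parental. The shMYC2-labelled and MYC T58A libraries lay below all others in this ratio. ABL2 to ABL1 averaged 1.03, 2.13, 1.01, 2.09 and 1.06 in these groups in the same order.

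Across the 5 groups, neighbours in the order of levels often did not differ. For SRC the order from the top was shMYC1 label, Parental, Resistant, MYC T58A and shMYC2 label, and the first step was not called. For CSK the step from MYC T58A down to the shMYC1 label was called (1.33-fold, adjusted p = 3.87e-06), and none of the 3 below it was. For PTK2 each step but that from Resistant to the shMYC1 label was called. For ABL1 the step from the shMYC2 label down to Resistant was called (2.11-fold), and Resistant and Parental could not be separated (adjusted p = 0.631). BCAR1 had a called step below the shMYC2 label alone (1.42-fold, adjusted p = 6.92e-05).

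A rule that sought, among genes with at least 100 normalized reads in their highest group, those whose 5 group means on the log2 scale lay nearest to a member's was applied to the 7 members whose means span at least 1 on the log2 scale. The measure was the root mean square distance between centred group means, over 15 libraries in 5 groups, and 12381 genes were candidates for SRC. PAIP2B lay nearest to YES1 (distance 0.037), with means of 145, 47.8, 103, 56.8 and 48.3 normalized reads in shMYC2 label, shMYC1 label, MYC T58A, Resistant and Parental. MALT1 lay nearest to SRC (0.049), C6orf62 to ABL1 (0.037), ZNF319 to FYN (0.063) and C7orf43 to PTK2B (0.035). Second came CYB5A for YES1 (0.12), COX17 for SRC (0.052), ZNF449 for ABL1 (0.039), LARP6 for FYN (0.064) and HEATR5A for PTK2B (0.044). CSRP1, a LIM-domain protein of the actin cytoskeleton and itself on the list of focal adhesion proteins, lay nearest to ABL2 (0.135). EVC was all but level with it (0.136), and no other of the 7 members had its nearest gene so far away. CSRP1 averaged 6716 normalized reads with the shMYC2 label, 4590.2 with the shMYC1 label, 2341 in MYC T58A, 5050.2 in Resistant and 2927 in Parental. Nearest to LYN came the row named hsa-mir-7162 (0.11) and ZNF486 (0.13), a zinc finger gene that averaged 2.09 normalized reads with the shMYC2 label and 943 in Resistant.

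Of the other SRC-family and related kinases, LCK, FRK and PTK6 were in the table. LCK, the T cell member, had no read in the libraries labelled shMYC2, against 16.01, 10.3 and 10.01 normalized reads in Resistant, so it was at least 3.86-fold lower with 3 reads taken per library. FRK was 4.40-fold lower with the shMYC1 label than in Resistant (log2 -1.99, adjusted p = 1.92e-05) and 2.21-fold lower in MYC T58A than in Parental (log2 -1.08, adjusted p = 0.0047). PTK6 was too low to be tested, with group means of 0.636 to 6.61 normalized reads.

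Regulators of these kinases are phosphatases, adaptors and ligases that set their activity, and 21 of the 23 listed were tested. In Resistant against Parental 5 (23.8%) rose and 8 (38.1%) fell, beside 27.2% and 24.4% of all tested genes, with a median log2 difference of -0.11. PTPRE, a receptor phosphatase that can activate SRC, averaged 291 normalized reads in Resistant and 112 in Parental (2.60-fold higher, adjusted p = 5.83e-09). PTPRA, which removes the inhibitory phosphate from SRC, averaged 1403 in Resistant and 2328 in Parental (1.66-fold lower, adjusted p = 1.73e-08). SRCIN1, an inhibitor that works through CSK, was 2.26-fold lower and STYK1 2.00-fold higher in Resistant. In MYC T58A against Parental 6 (28.6%) rose and 12 (57.1%) fell, beside 30.1% and 33.7% of all tested genes, with a median of -0.39. PTPN22, a phosphatase that partners CSK in T cells, averaged 24.3 in MYC T58A and 195 in Parental (8.04-fold lower, adjusted p = 6.17e-15). SIRPA was 2.55-fold lower, SH2B2 3.26-fold higher and RIN1, an activator of ABL kinases, 1.73-fold higher in MYC T58A.

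Of the regulators 6 (28.6%) rose and 8 (38.1%) fell with the shMYC1 label against Resistant, beside 27% and 30.1% of all tested genes, with a median of 0.077. PTPRE was 4.08-fold and STYK1 2.48-fold lower, and CAV1, the main protein of caveolae, averaged 18920 normalized reads with the label and 9651 in Resistant (1.96-fold higher, adjusted p = 2.52e-12). PTPN22 was 1.73-fold higher. 11 (52.4%) rose and 9 (42.9%) fell with the shMYC2 label against Resistant, beside 36.2% and 43% of all tested genes, with a median of 0.29. PTPN22 averaged 2116 with the shMYC2 label and 305 in Resistant (6.94-fold higher, adjusted p = 1.73e-15), and RIN1 was 2.05-fold higher. STYK1 was 3.96-fold and PTPRE 3.29-fold lower.

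Adaptors and effectors of FAK, CAS and ABL carry the signal to actin and small GTPases, and 37 of the 40 listed were tested. In Resistant against Parental 6 (16.2%) rose and 13 (35.1%) fell, beside 27.2% and 24.4% of all tested genes, with a median of -0.088. SORBS2, an ABL-binding adaptor of stress fibres, averaged 488 normalized reads in Resistant and 2703 in Parental (5.53-fold lower, adjusted p = 2.12e-13), and NEDD9, the melanoma-linked relative of BCAR1, was 3.20-fold lower. STAT3 was 1.56-fold and ASAP1 1.24-fold higher in Resistant. In MYC T58A against Parental 13 (35.1%) rose and 16 (43.2%) fell, beside 30.1% and 33.7% of all tested genes, with a median of -0.090. SORBS2 was 28.0-fold lower there (mean 96.5 against 2703, adjusted p = 1.15e-17) and NEDD9 11.3-fold lower (adjusted p = 8.09e-11), while ASAP1 was 1.60-fold and BAIAP2 1.49-fold higher.

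NEDD9 belongs to the CAS family with BCAR1, and its pattern was another. It had 0, 1.04 and 1.02 normalized reads in the libraries labelled shMYC2, 371, 337 and 314 in those labelled shMYC1, and 51.1, 44.7 and 43.2 in MYC T58A. Resistant libraries had 168, 167 and 156, and Parental libraries 522, 537 and 511. No 2 groups overlapped, and the order was not that of BCAR1. NEDD9 had 2 reads in the shMYC2-labelled libraries against 506 in Resistant, which is 234-fold lower (exact 95% counting interval 64.4 to 1937). ELMO1, which works with DOCK1 downstream of BCAR1 and CRK, had 4 reads against 2247, which is 519-fold lower (203 to 1908).

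Of the adaptors and effectors 17 (45.9%) rose and 7 (18.9%) fell with the shMYC1 label against Resistant, beside 27% and 30.1% of all tested genes, with a median of 0.090. ARHGEF28, a FAK-binding exchange factor for RHOA, was 2.36-fold higher and SORBS2 2.26-fold higher, while STAT3 was 1.58-fold and RAPGEF1 1.47-fold lower. 22 (59.5%) rose and 9 (24.3%) fell with the shMYC2 label against Resistant, beside 36.2% and 43% of all tested genes, with a median of 0.32. NCK2, an adaptor that links tyrosine kinases to actin, averaged 1979 normalized reads with the shMYC2 label and 261 in Resistant (7.59-fold higher, adjusted p = 9.03e-18). BCAR3, a binding partner of BCAR1, was 2.53-fold higher.

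Structural proteins of focal adhesions form the physical link between integrins and actin, and 32 of the 34 listed were tested. In Resistant against Parental 14 (43.8%) rose and 9 (28.1%) fell, beside 27.2% and 24.4% of all tested genes, with a median of 0.091. The kindlin FERMT2 averaged 4118 normalized reads in Resistant and 1754 in Parental (2.35-fold higher, adjusted p = 3.42e-12), and the kindlin FERMT1 was 1.58-fold lower. TLN2 (talin-2) was 1.96-fold higher and PXN (paxillin), a substrate of PTK2 and SRC, 1.56-fold lower. In MYC T58A against Parental 10 (31.2%) rose and 19 (59.4%) fell, beside 30.1% and 33.7% of all tested genes, with a median of -0.26. LPXN (leupaxin), a paxillin relative that binds PTK2B, averaged 409 in MYC T58A and 1973 in Parental (4.83-fold lower, adjusted p = 3.03e-16). SDC4 was 3.15-fold lower, TNS1 2.61-fold higher and PDLIM5 2.17-fold higher.

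Of the structural genes 10 (31.2%) rose and 14 (43.8%) fell with the shMYC1 label against Resistant, beside 27% and 30.1% of all tested genes, with a median of -0.067. TLN2 was 2.80-fold and TNS1 2.07-fold lower, while FERMT1 was 1.93-fold and VASP 1.75-fold higher. 17 (53.1%) rose and 13 (40.6%) fell with the shMYC2 label against Resistant, beside 36.2% and 43% of all tested genes, with a median of 0.32. ENAH, an actin elongation factor at adhesions, averaged 311 normalized reads with the shMYC2 label and 9655 in Resistant (31.0-fold lower, adjusted p = 5.35e-20), and LPXN was 6.47-fold lower. TNS1 (tensin-1) averaged 3214 with the shMYC2 label and 215 in Resistant (14.97-fold higher, adjusted p = 8.49e-14), and LIMS1 was 3.70-fold higher. Against Resistant, 6155 of all genes were higher and 7319 lower with the shMYC2 label. With quantile scaling 7863 were higher and 6167 lower, and with total-count scaling 5234 were higher and 8259 lower. The splits of the pathway lists were not computed under these scalings.

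**Figure D5:**
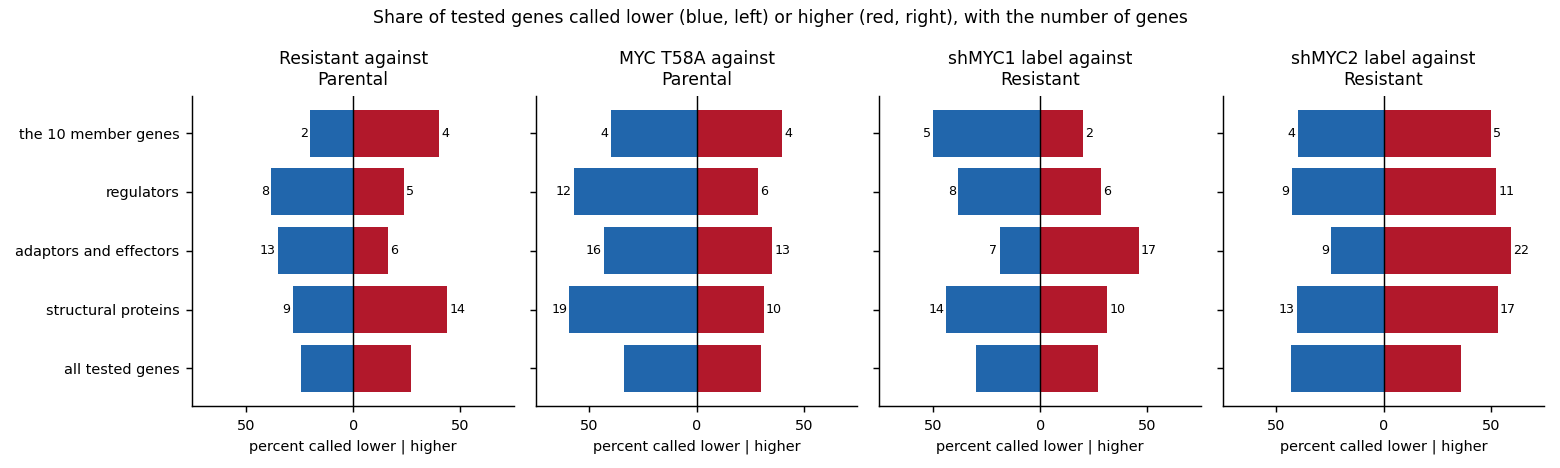
Percent of tested genes called lower (bars to the left) and higher (bars to the right) in each comparison for the 10 members, the 3 pathway lists and all tested genes, with the number of genes beside each bar. With the shMYC2 label 22 of the 37 adaptors and effectors rose (59.5%, beside 36.2% of all tested genes). In MYC T58A 19 of the 32 structural genes fell (59.4%, beside 33.7%).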

How the data were processed

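RNA was measured in 15 libraries of A375 cells by sequencing of stranded mRNA libraries (Kapa kit), per the labels' protocols. STAR, HTSeq, DESeq2, cutadapt and Trim Galore were used, per the submitters' processing notes. The sources used here do not give the build, the annotation or the strand setting. The values as deposited by the authors are a signal, the reads of a gene over the size factor of its library: 100% of values came out as whole reads within a tolerance of 0.01. This was read from the values. Library numbers follow column order within each group, since the columns carry no replicate number of the titles.

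Values were put on a log2 scale with a pseudocount of 1. Of 18322 genes, 17012 were tested, those that reach 10 normalized reads in 3 or more libraries. All 15 libraries entered 1 limma fit (version 3.58.1, with trend and robust options, under R 4.3.3) with a mean per group. Benjamini-Hochberg adjustment ran over every tested gene. A log2 difference on this scale understates the change of genes with few reads. Fold changes are ratios of mean normalized reads. The p-values rest on the spread between libraries within groups, taken as 1 estimate per gene over the 5 groups and drawn toward a trend over all tested genes. They do not cover differences between separately made cell populations. An exact permutation test of 3 against 3 cannot go below p = 0.1 and was not used for calls. For LYN, NEDD9 and ELMO1, and for LCK in MYC T58A, the ratio of reads is given with an exact 95% interval that covers counting error only. For LCK with the shMYC2 label the bound takes 3 reads per library.

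Neighbours are the tested genes nearest on the chromosome, 25 on each side, by the gene order of GENCODE v29, in which 14217 of 17012 tested genes were found by symbol. For YES1, near a chromosome end, 30 were available. Exon lengths are unions of all GENCODE v29 exons of a gene, so levels per kb compare different genes only roughly. Promoters come from a RefSeq table (GRCh38.p14) that holds 13 starts of 6 members, FYN, YES1, CSK, BCAR1, ABL1 and ABL2. SRC, LYN, PTK2 and PTK2B are named only.

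The members, the 4 pathway lists and the 5 marker lists were chosen from general knowledge with earlier results of these data known. The genes named are the members, MYC and SOX10, the other SRC-family kinases, up to 2 called genes in each direction per pathway list and comparison (largest difference, mean of at least 100 in the higher group), and the 2 nearest patterns. In the 4 main comparisons tests were repeated on the recovered reads with DESeq2 1.42.0 and with the quasi-likelihood test of edgeR 4.0.16, with total-count and quantile scaling, pseudocounts of 0.1 and 10, no filter and a minimum of 50, the compared groups alone, and each library left out.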

Additional observations from a re-analysis of the deposited data

Results flagged for a closer look

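For 3 members the libraries with the 2 hairpin labels were called in opposite directions against Resistant. They were picked for that, so the differences between the labels are a description with no test. SRC was lower with the shMYC2 label (log2 -0.76) and higher with the shMYC1 label (log2 0.36), a difference of -1.13. YES1 was higher with the shMYC2 label (log2 1.39) and lower with the shMYC1 label (log2 -0.29), a difference of 1.68. ABL1 was higher with the shMYC2 label (log2 1.07) and lower with the shMYC1 label (log2 -0.19), a difference of 1.27. Both sets are compared with the same Resistant libraries. Over all tested genes, 2753 of 17012 (16.2%) were called in opposite directions in this way.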

How the results depend on the processing

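Under each alternative the numbers of members called were 6 in Resistant against Parental (6 to 6), 8 in MYC T58A against Parental (6 to 9), 7 with the shMYC1 label against Resistant (6 to 8) and 9 with the shMYC2 label against Resistant (7 to 9). Of the listed pathway genes, 92 of 104 tested at the main minimum, 55 (51 to 66), 78 (73 to 82), 63 (54 to 65) and 82 (76 to 84) were called, and of all genes 8781 (7707 to 9694), 10862 (9419 to 11480), 9713 (8585 to 10196) and 13474 (11270 to 14085). Leaving out a library gave 6, 7 to 8, 6 to 8 and 9 members. Among the member values, 604 kept direction and side of the threshold, 13 were no longer called, 9 became called, 4 uncalled values moved and none of the called ones turned round; the cause was not tested. These 4 changed sign: ABL2 with the shMYC2 label (-0.091 with total-count and -0.090 with quantile scaling), PTK2B with the shMYC1 label (0.069 with quantile scaling) and BCAR1 in Resistant against Parental (0.015 without library 1 of Resistant). With the shMYC1 label PTK2 was called lower with total-count (log2 -0.13, adjusted p = 0.00525) and quantile scaling (-0.11, adjusted p = 0.0204). With the shMYC2 label against Resistant the median of all genes was -0.0755, and moved to -0.221 with total-count and 0.152 with quantile scaling. No paired analysis was possible because the columns carry no replicate number of the labels. Depth limits LYN, NEDD9, ELMO1 and LCK with the shMYC2 label, where counts were at most 6 in all.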
